A study of Mus musculus with 7 samples.

Results

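The 39 genes described here carry fatty acids into muscle cells and burn them. They were chosen by name for their place in the pathway, with earlier results of these data known; no value enters the rule. All 39 were found among the 29869 gene symbols of the deposited table, 37 under their present symbol and 2 under an older one (Eci1 as Dci and Eci2 as Peci). Each of the 39 passed the filter on low counts and was tested.

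RNA was sequenced from whole soleus, a hindlimb muscle rich in slow fibres, of mice 60 days old. Each animal had the mdx mutation, which abolishes dystrophin and serves as a mouse model of Duchenne muscular dystrophy. By their titles, 4 libraries came from mdx animals (358, 361, 373 and 375) and 3 from mdx/Runx1f/f animals (359, 363 and 374), which also carried floxed alleles of the transcription factor gene Runx1. Which Cre was used, and which exons it would remove, is not in the labels. The titles name a different animal for each library.

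Long-chain fatty acids enter a muscle fibre through CD36 and fatty acid transport proteins, are bound by FABP3, and are activated to acyl-CoA by acyl-CoA synthetases. CPT1 on the outer mitochondrial membrane passes the acyl group to carnitine, the carrier encoded by Slc25a20 moves acylcarnitine inward, and CPT2 rebuilds acyl-CoA in the matrix. Each turn of beta-oxidation then runs through an acyl-CoA dehydrogenase, a hydratase, a hydroxyacyl-CoA dehydrogenase and a thiolase, while electrons pass through the electron transfer flavoprotein to the respiratory chain. Slow fibres, which make up much of the soleus, rely on this pathway more than fast fibres do.

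The libraries held between 16218306 and 20847902 counts. Runx1, the floxed gene, stood at 274, 273, 235 and 201 normalised read counts in the mdx-labelled libraries and at 919, 925 and 596 in those labelled mdx/Runx1f/f; a lost transcript would have given the opposite order. Counts per gene also cover exons outside a deleted part, so they do not show whether the allele was deleted. The reason for the higher level was not tested. The titles are also not in accord with other labels, since the description field ties most animal numbers to another sample, and the design text counts the groups the other way round. Every direction here rests on the titles, and each would be reversed if the group titles were exchanged. With the animals joined by the description field, edgeR called 0 of the 39 genes (8 higher and 1 lower at an unadjusted p below 0.05), and their median log2 change was 0.38 in place of -0.40. Myh4, a fast myosin gene, stood at 246072, 53268 and 1293 normalised counts in mdx/Runx1f/f replicates 1 to 3 and between 739 and 8982 in the mdx-labelled libraries.

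Between the groups, the genes that passed the edgeR test encode mitochondrial enzymes, as do most of the 39 genes. Those called by DESeq2 include the uptake gene Slc27a1 and the activation genes Acsl1 and Acsl5. Of the 39 genes, 4 fell and 0 rose at an adjusted p below 0.05 (edgeR, quasi-likelihood test, Benjamini-Hochberg over 14033 genes): the carnitine palmitoyltransferase genes Cpt1b and Cpt2, the medium-chain acyl-CoA dehydrogenase gene Acadm, and the enoyl-CoA hydratase gene Echs1. Over all tested genes 1.85% were called lower and 5.10% higher, 6.95% in all. The fold change was negative for 31 of the 39 genes and positive for 8, with a median log2 change (the log2 fold change, mdx/Runx1f/f-labelled minus mdx-labelled) of -0.40, against a median of -0.0016 over all tested genes. At an unadjusted p below 0.05, 25 of the 39 were lower and 2 higher, against 12.4% and 17.1% of all tested genes. DESeq2 on the same counts called 15 lower and 1 higher, where it called 5.95% and 10% of all genes, and limma-voom called 5 lower and 0 higher, where it called 2.05% and 5.24%. In 15 of the 39 genes every library labelled mdx/Runx1f/f lay below every library labelled mdx, and in 1 every one lay above, against 12.8% and 14.4% of all tested genes.

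**Figure D1:**
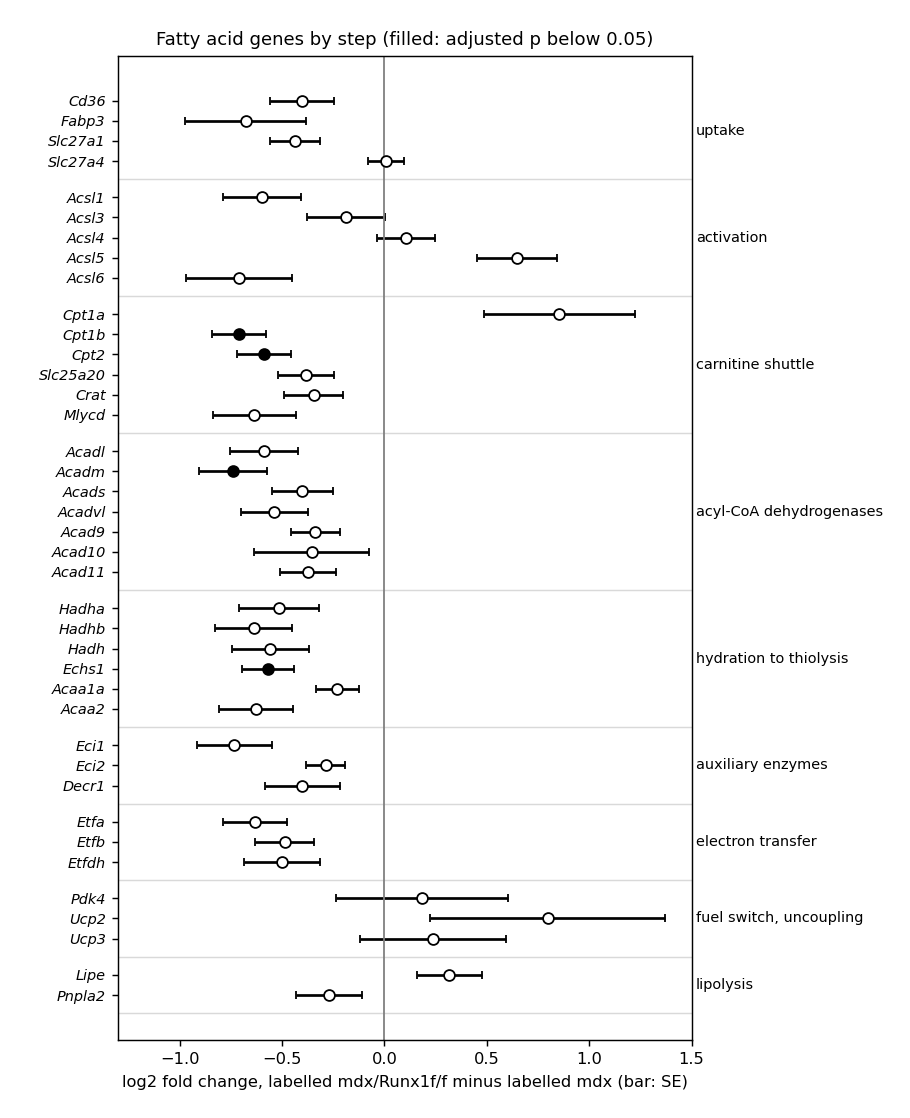
Log2 fold change (horizontal axis, labelled mdx/Runx1f/f minus labelled mdx, bar: SE) of the 39 genes, grouped by step; filled points have an edgeR adjusted p below 0.05. The 4 filled points, Cpt1b, Cpt2, Acadm and Echs1, lie between -0.74 and -0.57, and every dehydrogenase, thiolysis, auxiliary and electron transfer gene lies left of 0.

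Cpt1b, which encodes the muscle form of the enzyme that commits long-chain fatty acids to oxidation, stood at 10304, 11429, 13599 and 13239 normalised read counts in mdx replicates 1 to 4 and at 7297, 7501 and 7329 in mdx/Runx1f/f replicates 1 to 3. The groups did not overlap, and the 3 mdx/Runx1f/f-labelled libraries lay close together. The means were 12143 ± 1550 (SD, n = 4) and 7376 ± 110 (SD, n = 3), a 1.64-fold lower level (log2 change -0.71, SE 0.13, edgeR adjusted p = 0.0265). Cpt2, which encodes the enzyme on the inner membrane that completes the shuttle, stood at 2253, 2362, 2927 and 2982 normalised counts in the mdx-labelled libraries and at 1711, 1614 and 1892 in the others. It fell by 0.59 on the log2 scale (SE 0.13, edgeR adjusted p = 0.0404). Again no library of one group reached the other.

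Acadm stood at 7127, 7303, 9338 and 9447 normalised counts in the mdx-labelled libraries and at 4528, 4424 and 5909 in the others, or 8304 ± 1260 (SD, n = 4) against 4954 ± 829 (SD, n = 3). It was 1.67-fold lower, with a log2 change of -0.74 (SE 0.17, edgeR adjusted p = 0.0406). Within each group the highest value was in an animal numbered 373 or above. Echs1, whose product adds water to enoyl-CoA of short and medium chains, stood at 3718, 3337, 4108 and 3586 normalised counts in the mdx-labelled libraries and at 2186, 2319 and 2915 in the others. It was 1.48-fold lower (log2 change -0.57, SE 0.13, edgeR adjusted p = 0.0409), and the groups did not overlap.

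These 4 calls sat near the threshold in edgeR and in limma-voom. By DESeq2 the adjusted p was 3.09e-06 for Cpt1b, 0.00171 for Cpt2, 0.000728 for Acadm and 0.0018 for Echs1. The fits below are those of edgeR. Each gene kept its sign in every fit that left out a library, with log2 changes between -0.79 and -0.65 for Cpt1b, -0.66 and -0.52 for Cpt2, -0.89 and -0.66 for Acadm, and -0.71 and -0.49 for Echs1. The call of Cpt1b and of Cpt2 was kept only without mdx replicate 1, that of Acadm without mdx replicate 1 or mdx/Runx1f/f replicate 3, and that of Echs1 only without mdx/Runx1f/f replicate 3. In the other fits that left out a library the edgeR adjusted p was between 0.0502 and 0.0802 for Cpt1b, 0.0560 and 0.13 for Cpt2, 0.0651 and 0.133 for Acadm, and 0.0653 and 0.133 for Echs1. Scaling the libraries by 23 transcripts of any myofibre ended the 4 calls, with log2 changes of -0.44, -0.33, -0.48 and -0.31 and edgeR adjusted p of 0.0677, 0.114, 0.0581 and 0.112. On that scale the median of all tested genes moved to 0.26 and that of the 39 genes to -0.16. The distance between both medians was -0.42, beside -0.40 on the TMM scale. Rescaling shifts all genes by nearly the same amount, so this distance could hardly change and is no check of the 4 calls.

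**Figure D2:**
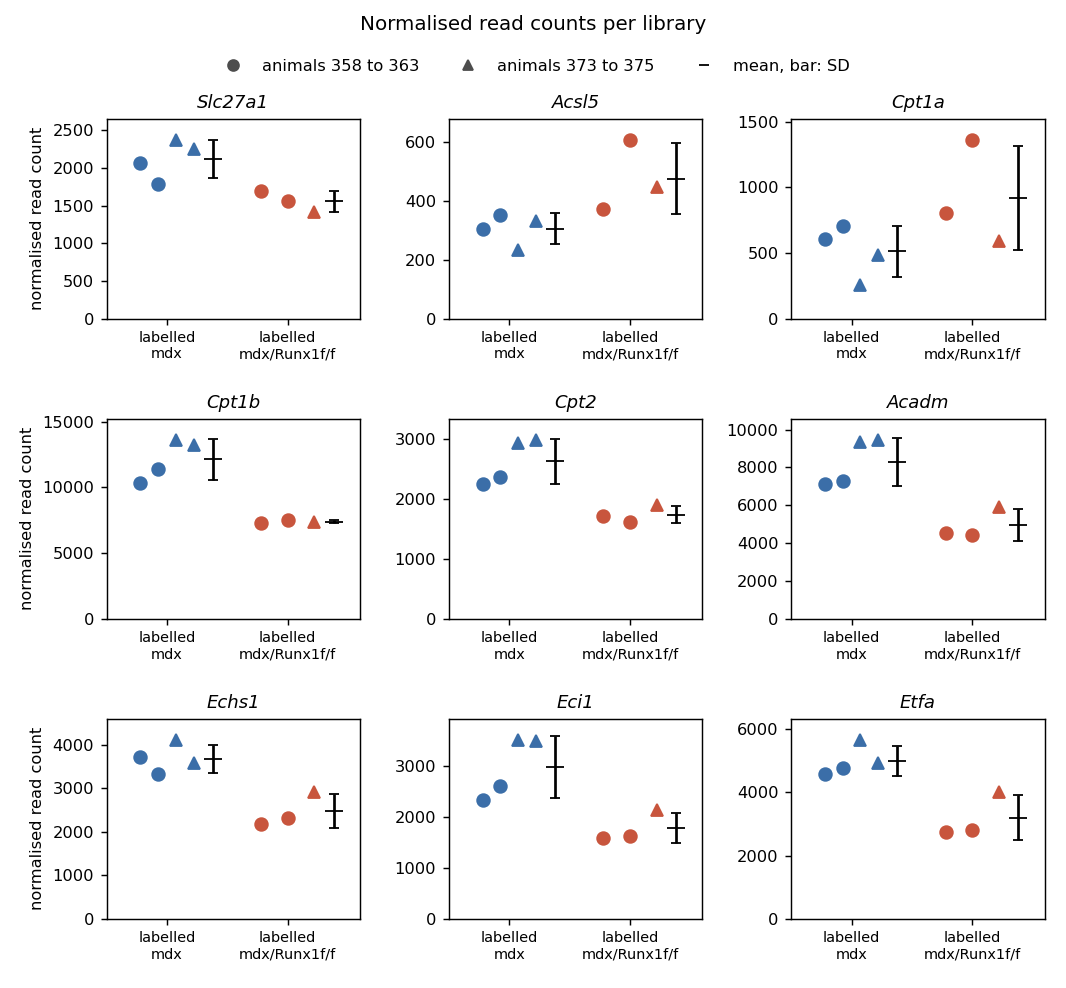
Normalised read counts (vertical axis, from 0) of 9 genes in each library, by labelled group (blue: mdx, red: mdx/Runx1f/f); circles are animals 358 to 363, triangles animals 373 to 375, and the dash with its bar is the mean and SD. For Cpt1b, Cpt2, Acadm, Echs1, Eci1, Etfa and Slc27a1 all red points lie below all blue points, for Acsl5 all lie above, and for Cpt1a the groups overlap.

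Stretches upstream of 4 starts are shown, those of the called genes Cpt2, Acadm and Echs1 and that of Cpt1a. Cpt1a had a positive fold change but was not called, and its groups overlapped. The RefSeq promoter table held windows for 34 of the 39 genes, on build GRCm38.p6, which is not the mm9 build of the counts. Cpt1b, the other called gene, had no window there. Each line gives the 250 bases before the start, 5′ to 3′ in the direction of the gene. They are chr4:107923590-107923839, minus strand, for Cpt2, chr3:153944644-153944893, minus strand, for Acadm, chr7:140116422-140116671, minus strand, for Echs1 and chr19:3323051-3323300, plus strand, for Cpt1a. Capitals mark matches, on either strand, to 2 forms of the Runx motif (TGTGGT and TGCGGT) and to AGGTCA, the half-site of nuclear receptors such as PPAR.
Cpt2: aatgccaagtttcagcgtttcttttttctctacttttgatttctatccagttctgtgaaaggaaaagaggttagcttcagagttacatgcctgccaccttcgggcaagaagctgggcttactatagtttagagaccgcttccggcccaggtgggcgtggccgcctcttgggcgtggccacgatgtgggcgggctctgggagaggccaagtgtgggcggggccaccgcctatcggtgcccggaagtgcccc
Acadm: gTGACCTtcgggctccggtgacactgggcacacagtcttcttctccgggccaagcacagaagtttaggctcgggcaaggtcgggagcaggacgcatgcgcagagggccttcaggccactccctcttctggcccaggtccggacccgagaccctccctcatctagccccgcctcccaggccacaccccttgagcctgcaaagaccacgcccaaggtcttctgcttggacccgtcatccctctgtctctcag
Echs1: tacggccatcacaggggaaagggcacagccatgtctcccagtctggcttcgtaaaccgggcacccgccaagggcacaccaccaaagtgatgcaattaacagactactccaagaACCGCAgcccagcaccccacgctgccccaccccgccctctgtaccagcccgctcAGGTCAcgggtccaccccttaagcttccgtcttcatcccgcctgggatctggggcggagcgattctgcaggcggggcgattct
Cpt1a: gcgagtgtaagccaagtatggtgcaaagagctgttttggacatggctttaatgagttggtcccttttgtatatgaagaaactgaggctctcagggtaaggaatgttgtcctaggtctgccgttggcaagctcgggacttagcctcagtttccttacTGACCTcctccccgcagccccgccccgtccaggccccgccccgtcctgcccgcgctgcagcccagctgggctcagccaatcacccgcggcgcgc
The Cpt2 stretch held no match. Acadm held AGGTCA on the minus strand at its distal end, 249 to 244 bases before the start. Echs1 held TGCGGT on the minus strand at -137 to -132 and AGGTCA on the plus strand at -83 to -78, and Cpt1a held AGGTCA on the minus strand at -94 to -89. Over the 40 windows of the set, AGGTCA was in 7 (17.5%), TGTGGT in 4 (10%) and TGCGGT in 1 (2.5%), against 14%, 14% and 5.1% of all 32851 windows of that length. The direct repeat of this half-site with 1 base between its copies was in 0 of the 40 and in 0.0335% of all windows. The ERR motif TCAAGGTCA, which also contains the half-site, was in 1 of the 40, that of Acsl6, and in 0.387% of all. These are matches of letters in a short window and not measured binding.

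At the uptake step none of the 4 genes was called. The smallest p was that of Slc27a1, which encodes the transport protein FATP1 of muscle and fat, at 2072, 1791, 2374 and 2260 normalised counts in the mdx-labelled libraries and 1690, 1569 and 1417 in the others. Its groups did not overlap, and its log2 change was -0.44 (SE 0.12, edgeR adjusted p = 0.0671, DESeq2 adjusted p = 0.0158). Cd36, the main fatty acid translocase of muscle and of its capillaries, ranged from 15116 to 18140 normalised counts in the mdx-labelled libraries and from 9960 to 13890 in the others, again without overlap (log2 change -0.40, edgeR adjusted p = 0.135). Fabp3, the fatty acid binding protein of heart and slow muscle, had a larger log2 change of -0.68 but a wide spread, with an SE of 0.30 and overlapping groups. Slc27a4, which encodes FATP4, stood at 393 ± 19 (SD, n = 4) and 393 ± 16.7 normalised counts (SD, n = 3), a log2 change of 0.01 (SE 0.09).

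The synthetases that activate fatty acids did not share one direction. Acsl1, the main form in muscle, ranged from 8479 to 13808 normalised counts in the mdx-labelled libraries and from 6494 to 8499 in the others (log2 change -0.60, edgeR adjusted p = 0.0891). Acsl6 had -0.71 (edgeR adjusted p = 0.116) and Acsl3 -0.19, while Acsl4 had 0.11. Acsl5, a form abundant in gut and liver, stood at 303, 353, 232 and 333 normalised counts in the mdx-labelled libraries and at 373, 608 and 448 in the others. It was the gene of the 39 whose groups were apart with the mdx/Runx1f/f-labelled libraries above, at a log2 change of 0.65 (SE 0.20, edgeR adjusted p = 0.0794, DESeq2 adjusted p = 0.0363). Per kb of exon, Acsl1 made up 84.5% to 90.7% of the 5 synthetase transcripts in the mdx-labelled libraries and 79.9% to 86.3% in the others, and Acsl5 1.72% to 2.99% against 4.47% to 7.33%. On the myofibre scale the fold change of Acsl3 was positive, at 0.05.

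In the carnitine shuttle the 2 CPT1 genes had opposite signs. Cpt1a, which encodes the form of liver and of most cells other than muscle fibres, stood at 609, 702, 254 and 481 normalised counts in the mdx-labelled libraries and at 806, 1360 and 594 in the others. The groups overlapped, since mdx/Runx1f/f replicate 3 lay below mdx replicates 1 and 2, and the log2 change was 0.85 (SE 0.37, edgeR adjusted p = 0.169). Without mdx/Runx1f/f replicate 2 it was 0.47. As a share of both CPT1 transcripts per kb of exon, Cpt1a was 3.81%, 3.95%, 1.24% and 2.38% in the mdx-labelled libraries and 6.90%, 10.8% and 5.16% in the others. On this measure, which was chosen after the values were seen and was not tested, the groups did not overlap. Cpt1b remained the main form in every library.

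**Figure D3:**
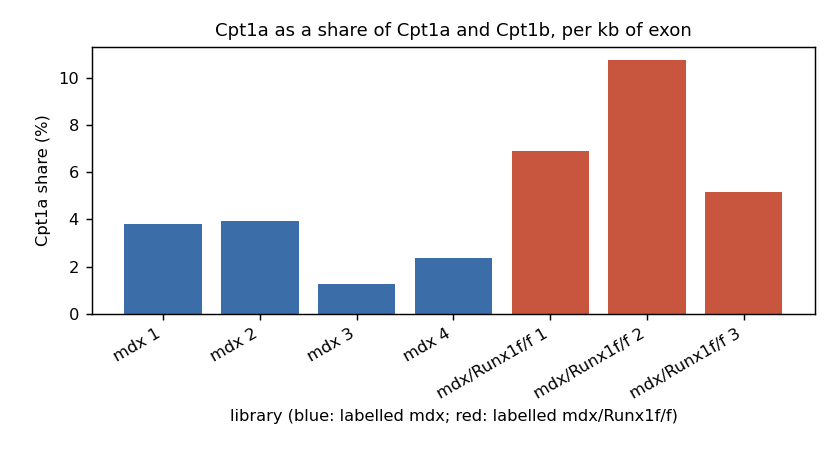
Cpt1a as a percentage of Cpt1a and Cpt1b transcripts per kb of exon (vertical axis) in each library; blue bars are labelled mdx, red bars labelled mdx/Runx1f/f. The blue bars reach 3.95% at most and the red bars start at 5.16%.

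Of the other shuttle genes, none was called by edgeR. Slc25a20, which encodes the carnitine-acylcarnitine carrier, had a log2 change of -0.38 (edgeR adjusted p = 0.115), and Crat, which encodes carnitine acetyltransferase, -0.35 (edgeR adjusted p = 0.152) with groups that did not overlap. Mlycd, whose product breaks down malonyl-CoA, the inhibitor of CPT1, had -0.64 (SE 0.20, edgeR adjusted p = 0.0895). In mdx/Runx1f/f replicates 1 to 3 it stood at 1427, 1418 and 1276 normalised counts, and mdx replicate 1, at 1416, lay among them.

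All 7 acyl-CoA dehydrogenase genes had negative fold changes, from -0.74 for Acadm to -0.34 for Acad9. Acadl, of the long-chain enzyme, stood at 11225, 12276, 14572 and 13872 normalised counts in the mdx-labelled libraries and at 7809, 7481 and 10515 in the others. The groups were apart by a small gap, between mdx/Runx1f/f replicate 3 and mdx replicate 1 (log2 change -0.59, edgeR adjusted p = 0.0693). The very-long-chain gene Acadvl and the short-chain gene Acads had -0.54 and -0.40 (edgeR adjusted p = 0.0795 and 0.126). Acad9, which is also needed to assemble respiratory complex I, had -0.34 (edgeR adjusted p = 0.114), and Acad11 -0.37 (edgeR adjusted p = 0.121). Acad10, at a mean of 24.8 ± 7.34 normalised counts (SD, n = 4) in the mdx-labelled libraries, was too low to be read closely, at a log2 change of -0.36 with an SE of 0.28.

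The steps from hydration to thiolysis held 6 genes, all with negative fold changes. Hadha and Hadhb, which encode both subunits of the mitochondrial trifunctional protein, had log2 changes of -0.52 and -0.64 (edgeR adjusted p = 0.132 and 0.0752). Hadhb stood at 682 ± 82.4 normalised counts per kb of exon (SD, n = 4) in the mdx-labelled libraries, beside 3693 ± 667 (SD, n = 4) for Hadha, although the protein holds as many beta as alpha subunits. The treatment of reads with several matches is not stated, so the level of Hadhb is uncertain. Hadh, of the short-chain hydroxyacyl-CoA dehydrogenase, had -0.56 and the thiolase gene Acaa2 -0.63 (edgeR adjusted p = 0.0979 and 0.0698). Acaa1a, of the peroxisomal thiolase, had -0.23 (edgeR adjusted p = 0.184) and 0.04 on the myofibre scale, and it can share reads with its near copy Acaa1b.

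Among enzymes that prepare unsaturated fatty acids, Eci1 came nearest to the threshold. This isomerase gene stood at 2326, 2596, 3500 and 3482 normalised counts in the mdx-labelled libraries and at 1593, 1628 and 2127 in the others, without overlap (log2 change -0.73, SE 0.18, edgeR adjusted p = 0.0536, DESeq2 adjusted p = 0.0050). Eci2 and the dienoyl-CoA reductase gene Decr1 had -0.29 and -0.40 (edgeR adjusted p = 0.0970 and 0.185). The electron transfer flavoprotein hands electrons from the dehydrogenases to ubiquinone. Its subunit gene Etfa stood at 4586, 4779, 5646 and 4940 normalised counts in the mdx-labelled libraries and at 2752, 2824 and 4020 in the others, without overlap (log2 change -0.63, SE 0.16, edgeR adjusted p = 0.0518, limma-voom adjusted p = 0.0487). Etfb had -0.49 and Etfdh, of the oxidoreductase that receives the electrons, -0.50 (edgeR adjusted p = 0.0756 and 0.121).

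None of the 5 genes that steer fuel choice and lipolysis was called (0 at an unadjusted p below 0.05). Pdk4, whose product shuts off pyruvate dehydrogenase when fat is burned, ranged from 14073 to 41195 normalised counts in the mdx-labelled libraries and from 15523 to 33072 in the others (log2 change 0.18, SE 0.42). The uncoupling protein gene Ucp2, abundant in immune cells, stood at 1602, 4120, 661 and 936 in the mdx-labelled libraries and at 2175, 3525 and 3790 in the others (log2 change 0.80, SE 0.57, edgeR adjusted p = 0.382). Without mdx replicate 2, its highest library, the log2 change was 1.57 (edgeR adjusted p = 0.0653). It was 0.0099 in a fit of animals 358 to 363 alone and 2.25 in animals 373 to 375 alone (edgeR adjusted p = 4.98e-05), which have 1 library on one side. Ucp3, the form of skeletal muscle, had 0.24 (SE 0.36). Lipe and Pnpla2, which encode the hormone-sensitive and adipose triglyceride lipases, had 0.32 and -0.27 (edgeR adjusted p = 0.219 and 0.298). The smallest p of this lipolysis pair was that of Lipe, at 643, 746, 562 and 737 normalised counts in the mdx-labelled libraries and 646, 900 and 956 in the others, which overlapped.

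Level per kb of exon set the order of the genes, with exon lengths from GENCODE M21. In the mdx-labelled libraries the highest were Acadl at 6778 ± 792 normalised counts per kb (SD, n = 4), Pdk4 at 6451 ± 3624 and Fabp3 at 6141 ± 1699, which do not differ beyond their spread. At the low end stood Acsl5 at 71.9 ± 12.5 (SD, n = 4), Acsl4 at 39.8 ± 2.97 and Acad10 at 6.41 ± 1.90. In the mdx/Runx1f/f-labelled libraries Pdk4 stood first, at 7307 ± 2584 (SD, n = 3), followed by Acadl at 4489 ± 869, and Cpt1b moved from place 7 to place 9.

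Values also differed between animals of low and high number. The labels give no date or batch, but the numbers form 2 ranges, 358 to 363 and 373 to 375. By the titles each range holds both groups. By the description field the lower range is the mdx group and the upper range the mdx/Runx1f/f group. A difference between ranges and one between the description field's groups thus rest on the same split of the libraries. The mean log2 CPM (counts scaled to library size) of the 39 genes was 6.96 and 7.07 in mdx replicates 1 and 2 and 6.74 and 6.71 in mdx/Runx1f/f replicates 1 and 2, all of the lower range. In the upper range it was 7.10 and 7.25 in mdx replicates 3 and 4 and 6.91 in mdx/Runx1f/f replicate 3. This last library thus lay close below mdx replicate 1. Within both ranges, 25 of the 39 genes were lower in every library labelled mdx/Runx1f/f and 2, Acsl5 and Cpt1a, higher in every one, against 19.1% and 20.1% of all tested genes.

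**Figure D4:**
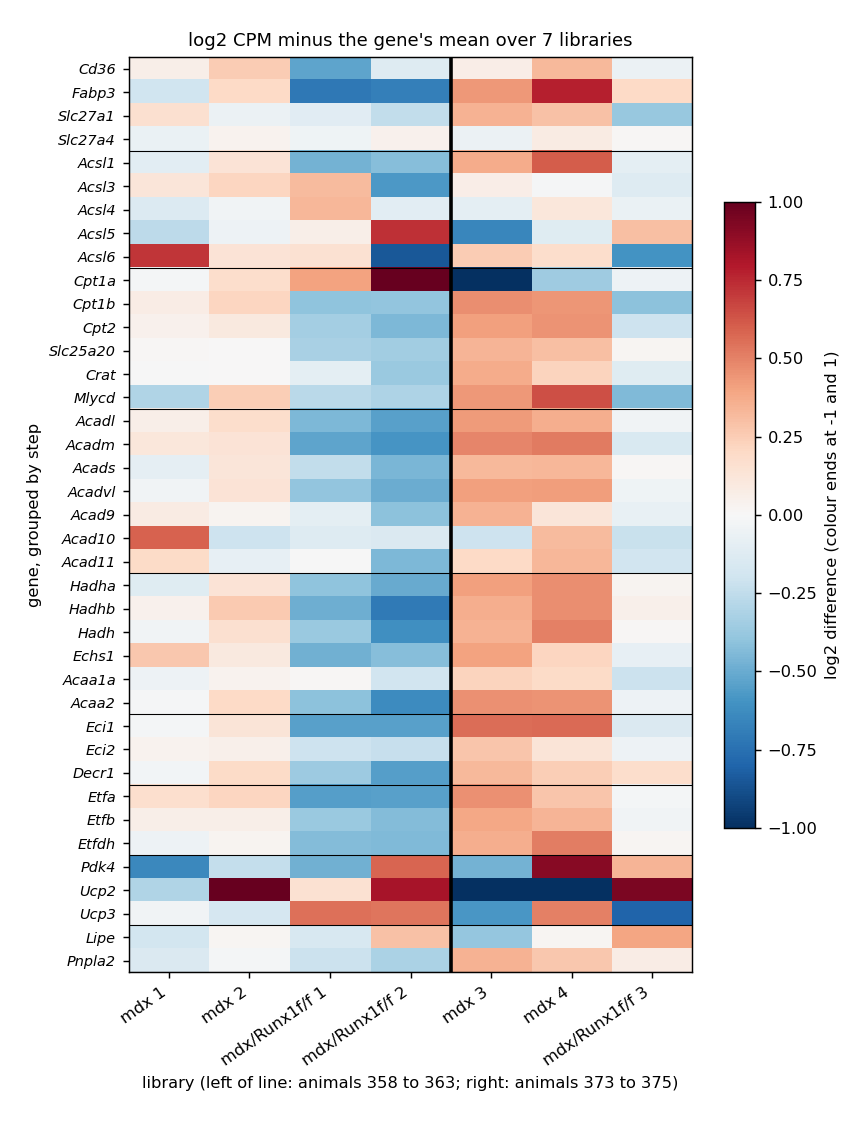
Log2 CPM of each of the 39 genes (rows, grouped by step) minus its mean over the 7 libraries (columns, with a line between both animal number ranges); colour is the log2 difference, ending at -1 and 1. On each side of the line the columns labelled mdx/Runx1f/f are bluer than those labelled mdx for most mitochondrial genes. By mean log2 CPM, the mdx/Runx1f/f-labelled libraries were higher on both sides for Acsl5, Cpt1a, Pdk4, Ucp2, Lipe and, slightly, Slc27a4. For Acsl4 and Ucp3 they were higher only on the left.

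With the number range as a covariate, edgeR called 17 of the 39 genes lower and 0 higher (2 higher at an unadjusted p below 0.05, Benjamini-Hochberg adjustment), where it called 4.15% and 8.88% of all genes. They were Fabp3, Acsl1, Cpt1b, Cpt2, Slc25a20, Acadl, Acadm, Acadvl, Hadha, Hadhb, Hadh, Echs1, Acaa2, Eci1, Etfa, Etfb and Etfdh. The covariate of this fit is also the grouping by the description field, and the group term follows the titles. The difference within the lower and the upper range was -0.54 and -0.87 log2 CPM for Cpt1b, -0.46 and -0.64 for Cpt2, -0.68 and -0.66 for Acadm and -0.64 and -0.39 for Echs1. For Cpt1a it was 0.69 and 0.77. An interaction of group and range was added after the data were seen. It was called by edgeR in 0 of the 39 and 0 of all genes. An unadjusted p below 0.05 was found for 3 of the 39 and 826 of all 14033 tested genes, so both shares were near each other. These 3 were Slc27a1, Ucp2 and Ucp3, with interactions of -0.47, 2.25 and -1.50 on the log2 scale (unadjusted p = 0.0482, 0.0179 and 0.0259, edgeR adjusted p = 0.824 for each). Animals 358 to 363 alone gave 0 called genes of the 39 by edgeR (19 lower and 2 higher at an unadjusted p below 0.05), and animals 373 to 375 alone, with 1 library on one side, gave 7 lower and 1 higher, Ucp2, where 3.08% and 9.53% of all genes were called.

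Other genes of mitochondrial energy metabolism had similar medians. Of 18 genes of the tricarboxylic acid cycle, 1 fell and 0 rose, with a median log2 change of -0.46 and negative values for all 18. The fallen gene was Suclg2, of a succinyl-CoA ligase subunit, at -0.57 (edgeR adjusted p = 0.0335). Of 36 respiratory chain and ATP synthase subunit genes, 0 were past the threshold of edgeR or of limma-voom, 17 were called lower by DESeq2 and 29 were lower at an unadjusted p below 0.05. Their median was -0.41, and all 36 were negative. No test here sets the fatty acid genes apart from these lists. Of 11 genes of pyruvate dehydrogenase and its regulators, 1 fell, Pdk2 (-0.61, edgeR adjusted p = 0.0363), with a median of -0.35. Of 15 glycolysis genes 1 fell, the monocarboxylate transporter gene Slc16a1 (-0.83, edgeR adjusted p = 0.0079), with a median of 0.05.

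**Figure D5:**
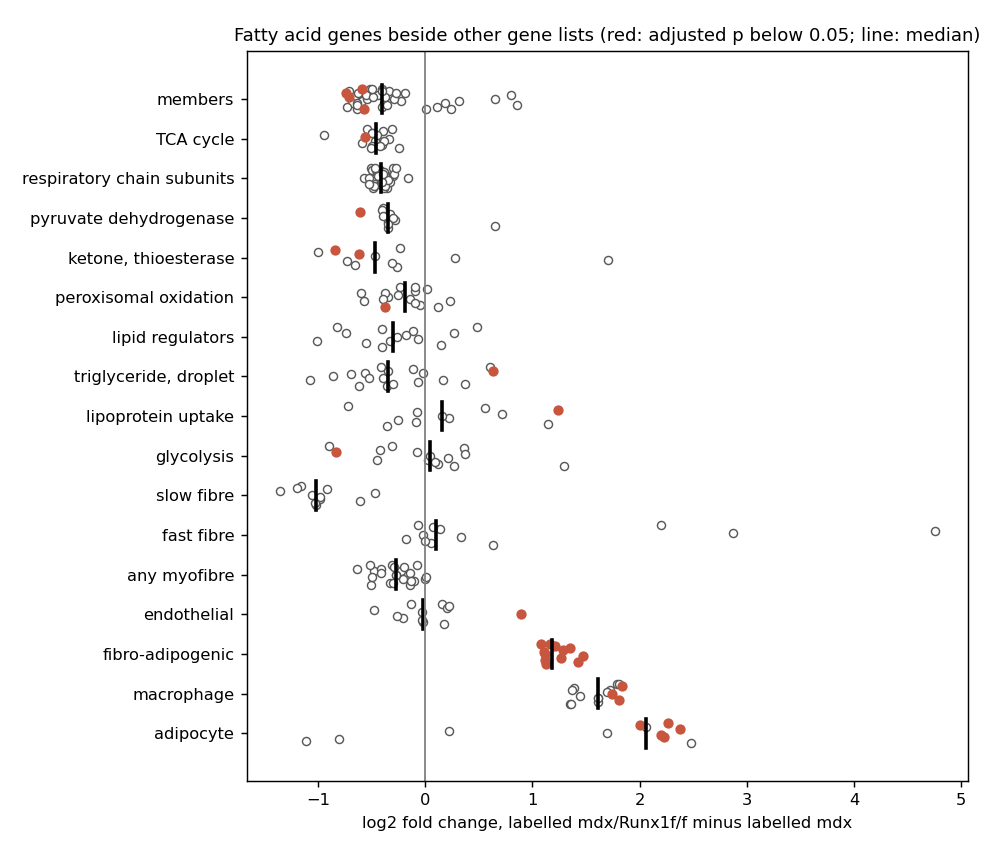
Log2 fold change (horizontal axis) of every tested gene of the 39 (members) and of other gene lists; each point is a gene, red points have an edgeR adjusted p below 0.05 and the line is the list's median. The medians of the members, the TCA cycle and the respiratory chain lie between -0.46 and -0.40, the slow-fibre median at -1.02 and the fibro-adipogenic, macrophage and adipocyte medians above 1.

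Neighbouring lipid pathways were mixed. Of 16 peroxisomal oxidation genes 1 fell, Hsd17b4 (-0.37, edgeR adjusted p = 0.0378), with a median of -0.19, or 0.07 on the myofibre scale. Of 11 genes of ketone use and acyl-CoA thioesterases 2 fell, Acot11 (-0.84, edgeR adjusted p = 0.0157) and Acat1 (-0.62, edgeR adjusted p = 0.0348), with a median of -0.47. Of 18 genes of triglyceride and lipid droplets 1 rose, the lipin gene Lpin2 (0.63, edgeR adjusted p = 0.0436), while the droplet coat gene Plin3 had -1.08 (edgeR adjusted p = 0.0505). The list's median was -0.35. Of 11 genes of lipoprotein uptake and lipid binding 1 rose, the endocytic receptor gene Lrp1 (1.24, edgeR adjusted p = 0.0288), which stromal cells also make. Lpl, the lipase that frees fatty acids at the capillary wall, had -0.72 without overlap between groups (edgeR adjusted p = 0.0689).

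Regulators of the pathway were not called. Of 14 tested receptor and coactivator genes 0 were past the threshold of edgeR or of limma-voom, 3 were lower by DESeq2, and 5 were lower at an unadjusted p below 0.05, with a median of -0.30, or -0.03 on the myofibre scale. The smallest p was that of Ppara, the receptor that drives genes of fatty acid oxidation, at 1474, 1193, 952 and 934 normalised counts in the mdx-labelled libraries and 454, 867 and 601 in the others. These groups did not overlap (log2 change -0.82, edgeR adjusted p = 0.0747). Klf15 and Nr1d1 had -0.74 and -1.01 (edgeR adjusted p = 0.09 and 0.0920). Ppargc1a, the coactivator gene PGC-1alpha, is listed at 0 in all 7 libraries, and no value was drawn from that. Of 10 genes of malonyl-CoA synthesis and AMPK 0 were past the threshold of edgeR or of limma-voom, 2 were lower by DESeq2, and 1 was higher and 2 lower at an unadjusted p below 0.05. Acacb, whose product makes malonyl-CoA at the mitochondrion, had -0.41 (edgeR adjusted p = 0.0709).

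Markers of fibre types and of other cells moved with the groups, and in whole muscle fewer cells of a type and less RNA per cell cannot be told apart. Of 11 slow-fibre genes 0 were past the threshold of edgeR or of limma-voom, 4 were lower by DESeq2 and 7 at an unadjusted p below 0.05, with a median of -1.02. Their summed level was 542211 to 912495 normalised counts in the mdx-labelled libraries and 147165 to 506427 in the others, and Myh7, the slow myosin gene, ranged from 140992 to 275132 and from 40503 to 133265. The 12 fast-fibre genes summed to 630306 to 1071180 and 686610 to 1648760, which overlapped. All 23 genes of any myofibre together gave 1731070 to 2099990 and 1369860 to 1660580, with a median log2 change of -0.27. The median of the 39 genes, at -0.40, lay between those of the pan-fibre and the slow-fibre lists.

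Of 12 markers of fibro-adipogenic progenitors 12 rose (median 1.19), summing to 57855 to 85973 normalised counts in the mdx-labelled libraries and 178075 to 206461 in the others. Of 15 macrophage markers 3 rose, the complement genes C1qa, C1qb and C1qc, with a median of 1.61 and sums of 3964 to 17567 and 16337 to 45940, which overlapped. Of 11 tested adipocyte markers 5 rose, Adipoq, Plin1, Cidec, Cfd and Pck1, and 0 fell (median 2.06). Fold changes were positive for 9 and negative for 2, Car3 among them. These 2 were lower at an unadjusted p below 0.05 (edgeR). The list summed to 61908 to 113860 normalised counts in the mdx-labelled libraries and 33609 to 54565 in the others. Car3, which slow fibres also make, held most of that sum. Without it the sums were 1433 to 2173 and 2639 to 7851. Adipoq, the adipocyte hormone gene, stood at 209, 107, 105 and 90.8 normalised counts in the mdx-labelled libraries and at 296, 542 and 998 in the others. Of 12 endothelial markers 1 rose, Vwf (0.89), with sums of 14242 to 24612 and 16773 to 22861. No marker of these lists was at 0 in all libraries. The part of these cell types in the values of Cpt1a, Acsl5, Ucp2, Lipe and the mitochondrial genes was not tested.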

How the data were processed

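RNA from whole soleus of 7 mice was sequenced. Per the submitters' processing notes the authors used TopHat2 2.0.10, HTSeq, the mm9 genome and DESeq2 1.6.3. They deposited 1 table with raw read counts per gene and, as a second block, counts divided by 1 size factor per library, a signal on the scale of counts called normalised read count here. Per the file headers the table also holds the authors' log2 fold change, test score (Wald statistic), p-value and adjusted p-value. By the adjusted p in the authors' deposited table, at the 0.05 threshold, 17 of the 39 genes were lower and 1 higher. The share of all genes called by that adjusted p is not given here, so this count has no background. The sources used here do not give the annotation, the strand setting or the treatment of multiply matching reads.

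Columns were joined to samples through the animal number in the titles. The whole table was fitted with edgeR 4.0.16 (R 4.3.3): TMM, filterByExpr, quasi-likelihood test, group as the only term, all 7 libraries, Benjamini-Hochberg adjustment over 14033 genes holding 99.9% of the counts. Calls are at 0.05 of the adjusted p. The SE is the log2 fold change over the root of F. Log2 CPM used a prior count of 2. The fit was tested on simulated counts with known changes. DESeq2 1.42.0, limma-voom (limma 3.58.1), other scalings and filters, and fits without each library were alternatives. The myofibre scaling divides by the summed counts of 23 genes fixed by name. Members, roles and lists were chosen with earlier results of these data known. Each role's gene with the smallest p and every called gene were given by library, and up to 3 genes with the smallest p, or those called, from each other list; further genes were named after their values were seen. P-values weigh the group difference against the spread between these animals. Every member but Acad10 had over 100 normalised counts in each library. For low members such as Slc27a4 and Acsl4, counting error can be about as large as the spread between animals.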

Additional observations from a re-analysis of the deposited data

Results flagged for a closer look

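Pdk4 stood at 41195 normalised counts in mdx replicate 4, while the other libraries labelled mdx lay between 14073 and 18710. The gap to the nearest of them was 0.83 of the group's range, just past the limit for a group of 4. It was the 1 such gene among the 39 examined, and chance alone flags about 1 in 20. The group difference of Ucp3 had opposite signs in the animal number ranges: both libraries labelled mdx/Runx1f/f lay above both labelled mdx in animals 358 to 363 (2217 and 2245 against 1499 and 1372 normalised counts), and the 1 such library lay below both in animals 373 to 375 (879 against 1032 and 2169). The log2 difference of the group means was 0.64 in the former and -0.76 in the latter, a change of -1.40. The interaction had an unadjusted p of 0.0259 and 0.824 after Benjamini-Hochberg adjustment in edgeR's quasi-likelihood fit, so it failed the correction. For Ucp2, whose group difference was positive in both ranges (0.12 and 2.27), the interaction was larger in size, at 2.25 on the log2 scale, and had an unadjusted p of 0.0179, with the same adjusted value. The upper range holds 3 libraries.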

How the results depend on the processing

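The median log2 fold change of the 39 genes stayed between -0.54 and -0.39 in the fits that left out 1 library, and moved by more than the spread between replicates without mdx/Runx1f/f replicate 3 (-0.54), on the myofibre scale (-0.16) and with the description field (0.38). The number of the 39 called lower was 4 with edgeR. It was 15 with DESeq2 (1 higher), 5 with limma-voom, 6 with no filter, 17 with the number range as a covariate, 0 in animals 358 to 363, 7 in animals 373 to 375 (1 higher), 0 on the myofibre scale, 0 with the description field and 0 to 6 without 1 library. Over all genes tested, whose number differs between some fits, 715 of 14033 were higher and 260 lower. With no filter 692 of 20152 were higher and 245 lower. The counts were 1484 and 881 with DESeq2, 1246 and 582 with the number range, 0 and 0 in animals 358 to 363, 1361 and 440 in animals 373 to 375, 1282 and 51 on the myofibre scale, 5 and 3 with the description field, and 173 to 641 and 17 to 209 without 1 library. Some of these fits had fewer libraries, and the cause of the differences was not tested.

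With the replicate block (title number), 2 of the 39 genes were lower, Acsl6 and Eci1, and 0 higher. The 4 calls of Cpt1b, Cpt2, Acadm and Echs1 ended (edgeR adjusted p = 0.0729, 0.0627, 0.0535 and 0.0574), and 240 of all genes were higher and 80 lower. Since mdx replicate 4 shares its number with no other library, it adds nothing to this comparison, which also fits more terms than the main fit. The deviations of same-numbered libraries correlated at -0.0069, 0.24 and 0.28. The deviations of mdx replicate 1 correlated best with those of mdx/Runx1f/f replicate 2 (0.51), and both animals are of the lower number range. So few values cannot show whether same-numbered libraries were paired, and the main fit treats them as unpaired.

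Joined by the description field, 33 genes had the opposite sign: Cd36 0.18, Fabp3 0.79, Slc27a1 0.18, Acsl1 0.52, Acsl4 -0.042, Acsl5 -0.28, Cpt1a -0.97, Cpt1b 0.32, Cpt2 0.39, Slc25a20 0.38, Crat 0.28, Mlycd 0.42, Acadl 0.42, Acadm 0.49, Acads 0.39, Acadvl 0.45, Acad9 0.23, Acad11 0.20, Hadha 0.51, Hadhb 0.47, Hadh 0.48, Echs1 0.29, Acaa1a 0.12, Acaa2 0.48, Eci1 0.58, Eci2 0.21, Decr1 0.41, Etfa 0.38, Etfb 0.40, Etfdh 0.52, Ucp2 -0.66, Ucp3 -0.43, Pnpla2 0.41. Other sign changes were those of Slc27a4 with no filter (-0.00089) and in 4 of the fits without 1 library (which ranged from -0.021 to 0.035), Acsl3 on the myofibre scale (0.054) and without 1 library (-0.44 to 0.0060), Acsl4 in animals 373 to 375 (-0.078) and without 1 library (-0.050 to 0.18), Acaa1a on the myofibre scale (0.036), Pdk4 in animals 373 to 375 (-0.039) and without 1 library (-0.046 to 0.66), and Ucp3 in animals 373 to 375 (-0.86). Depth limited Acad10 most, at 17 to 32 raw counts per library.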
